A study of Mus musculus with 8 samples.

Results

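The matricellular genes of synthetic smooth muscle were taken by symbol and are *Spp1* (osteopontin), *Postn* (periostin), *Tnc* (tenascin C), the thrombospondin genes *Thbs1*, *Thbs2*, *Thbs3*, and *Thbs4*, and the SPARC-family genes *Sparc*, *Smoc1*, and *Smoc2*. All 10 were found among the 18533 gene symbols of each count table. Matricellular proteins are secreted into the extracellular matrix, where they bind integrins, collagens, proteases, and growth factors and adjust adhesion and signalling, with little load-bearing role of their own. Many of them are scarce in the contractile smooth muscle of a resting artery and are made in quantity by smooth muscle cells that have turned synthetic, a state that PDGF-BB is widely used to induce in culture.

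RNA was sequenced from mouse aortic smooth muscle cells (MASMCs), primary cells grown from aortas of male mice aged 4 to 6 weeks, and estimated counts per gene were analysed for 8 samples. WT mice gave 4 of them and *Hint1-/-* mice the other 4, and all 8 had received PDGF-BB at 20 ng/mL for 24 hours. The comparison asks which transcripts differ when HINT1, a small nucleotide hydrolase of the histidine triad family, is missing from cells under this growth factor. No sample without PDGF-BB was analysed here, so no value below measures the response to PDGF-BB. The *Hint1-/-* mice came from another laboratory and are not the smooth muscle-restricted knockout that the study also bred, and comparisons in the study were made between littermates. Its methods name thoracic aortas in one place and whole aortas in another, with adventitia and endothelium removed before collagenase digestion of explants, and describe no sorting of the cells. Whether the 4 samples of a genotype came from separate mice or cultures is not stated, so the p-values measure only the spread between these samples, which may be technical.

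Each sample held between 20778077 and 20888041 estimated counts. The targeted gene was read first as a check of the labels, and *Hint1* had 2272, 2336, 2364, and 2301 counts in the WT samples against 713, 748, 778, and 715 in the *Hint1-/-* samples. The groups were far apart, with 32.1% of the WT level remaining, a difference in the direction of the labels. Gene-level counts do not show which part of the gene was deleted. Values of single samples are given in the order of replicates 1, 2, 3, and 4 throughout.

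Per length, the 9 members with more than a few counts spanned over 3 orders of magnitude in the same cells. Levels between genes were compared per kb of exon in edgeR's CPM, counts scaled to the size of the library, and on this scale *Spp1* stood first in both genotypes, at 5540 ± 355 in WT and 4570 ± 165 in *Hint1-/-* MASMCs (SD, n = 4 each). *Sparc* followed at 835 ± 39.0 in WT and *Thbs1* at 466 ± 23.3 (SD, n = 4). *Thbs2* at 145 ± 3.27 and *Tnc* at 144 ± 8.96 CPM per kb were next in WT, and their samples overlapped. These are the heavily expressed members, and they include a mineral-binding phosphoprotein, a collagen chaperone, and 3 large oligomeric glycoproteins. Below them in WT came *Smoc1* at 49.8 ± 2.80, *Postn* at 27.1 ± 0.516, *Thbs3* at 5.05 ± 0.386, and *Smoc2* at 1.94 ± 0.177 CPM per kb (SD, n = 4). The order was the same in *Hint1-/-* MASMCs, where *Thbs2* and *Tnc* again overlapped. Every other pair of neighbours was separate in both genotypes. With the longest transcript as the gene's length, a scale chosen after seeing the data, *Postn* stood at 45.2 CPM per kb in WT and overlapped *Smoc1* there, and *Thbs2* and *Tnc* separated in *Hint1-/-* MASMCs.

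**Figure D1:**
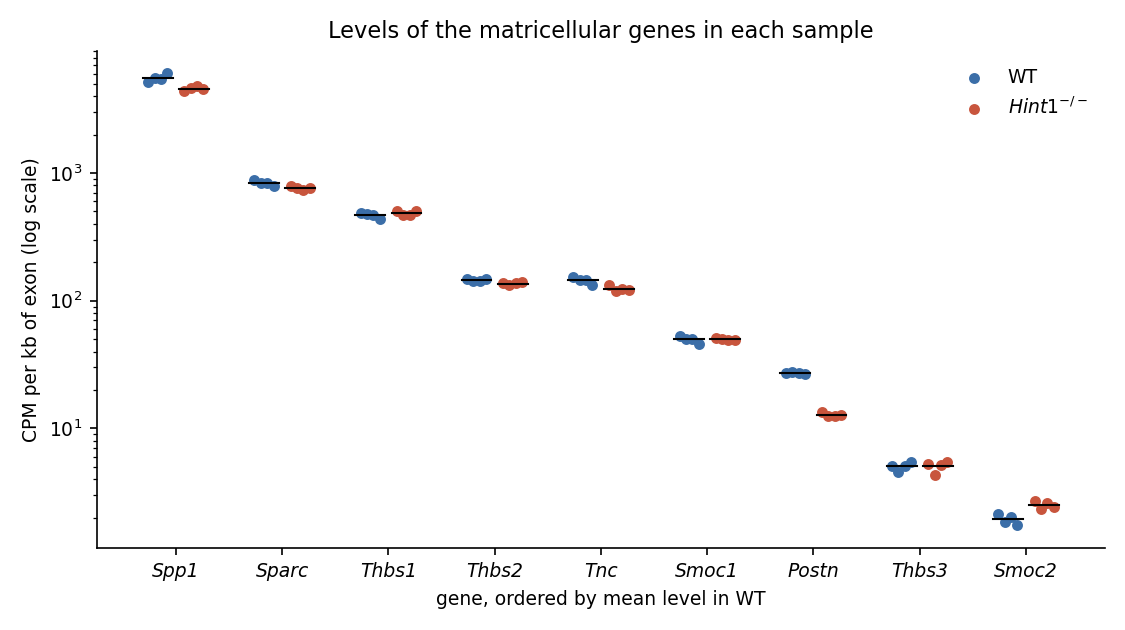
Level of each gene in each sample as CPM per kb of exon, on a log axis, with genes ordered by their WT mean. Each point is 1 sample, the black bars are the means of 4 samples, and *Thbs4*, at 0 to 3 counts per sample, is not drawn. *Postn* is the gene with the widest gap between the genotypes, at 27.1 against 12.8 CPM per kb.

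As a share of all counts, the 10 genes together took 1.76%, 1.79%, 1.75%, and 1.81% in the WT samples and 1.55%, 1.54%, 1.57%, and 1.55% in the *Hint1-/-* samples. The lowest WT sample lay above the highest *Hint1-/-* sample. *Spp1* alone supplied 51.5% ± 2.65 of the members' counts in WT and 48.2% ± 1.61 in *Hint1-/-* MASMCs (SD, n = 4 each). Without *Spp1*, the other members took 0.813% to 0.900% of counts in WT and 0.787% to 0.833% in *Hint1-/-* MASMCs, ranges that overlapped.

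Between the genotypes, periostin was the member that changed. Of the 10 genes, 9 passed edgeR's filter on low counts, and *Thbs4* did not. To be called changed, a gene needed a fold change over 1.5 together with a Benjamini-Hochberg adjusted p below 0.05 (edgeR, quasi-likelihood), the limits used in the study. *Postn* alone among the 9 passed both, as a lower transcript in *Hint1-/-* MASMCs, where 2.83% of all 13535 genes tested passed both and 1.49% did so as lower genes. At the adjusted p alone, *Spp1*, *Postn*, *Tnc*, *Thbs2*, and *Sparc* were lower and *Smoc2* was higher, which makes 6 of 9. Over all genes tested, 21.5% passed the adjusted p alone, 10.2% as lower and 11.2% as higher genes, a share that was not matched for abundance. The genotypes did not overlap for *Spp1*, *Postn*, *Tnc*, *Thbs2*, and *Smoc2*, 5 of the 9, against 23.0% of all genes tested. The median log2 fold change of the 9 was −0.09, beside 0.00 for all genes tested. With single samples left out, between 3 and 5 of the 9 were lower at the adjusted p alone, and *Smoc2* was higher in each such fit.

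**Figure D2:**
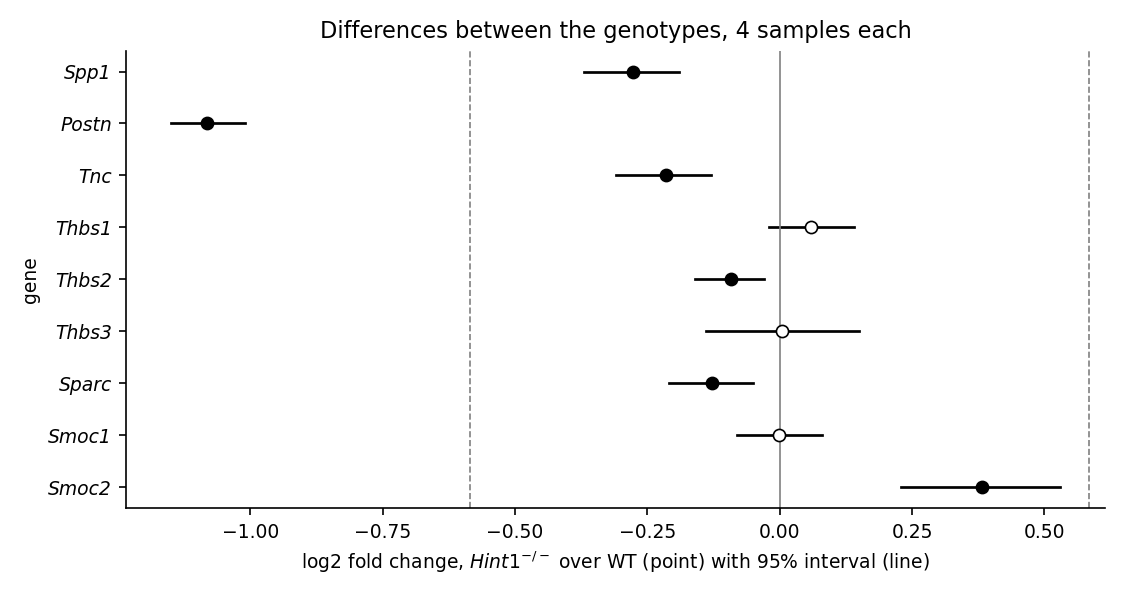
Log2 fold change of each tested gene in *Hint1-/-* over WT MASMCs (point) with its 95% confidence interval from edgeR's quasi-likelihood fit (line), n = 4 samples each. Filled points passed an adjusted p under 0.05, open points did not, and the dashed lines mark a fold change of 1.5 in either direction. Only the interval of *Postn*, −1.15 to −1.01, lies wholly beyond a dashed line.

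Periostin, a secreted fasciclin-domain protein that binds integrins and collagen and is a classic product of activated mesenchymal cells of the injured artery wall, had the largest difference of the 9 tested members. *Postn* lies on chromosome 3 of mm10, from 54361109 to 54391037 on the plus strand. It had 4890, 5058, 4976, and 4814 counts in the WT samples and 2419, 2266, 2251, and 2314 in the *Hint1-/-* samples. The WT samples were all high and close together, the *Hint1-/-* samples all low, and the gap between the groups was many times the spread within either. WT MASMCs held 236 ± 4.46 CPM and *Hint1-/-* MASMCs 111 ± 3.72 CPM (SD, n = 4 each), or 47.2% of WT. The log2 fold change was −1.08 (SE 0.034, 95% confidence interval −1.15 to −1.01, adjusted p = 3.64e-14 in edgeR's quasi-likelihood test). A two-sided exact permutation test of its log2 CPM gave p = 0.0286 (n = 4 each), the smallest p that 70 assignments of the labels can give. Gene-level counts do not resolve the splice variants of periostin, and no variant was examined.

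The genes closest to *Postn* in pattern were found by the root mean square difference of log2 CPM, each gene centred on its own mean, over the 8 samples and 11848 genes. *Tgfbi* was nearest, with a difference of 0.0773, followed by *Tmem267* at 0.0895 and *Actg2* at 0.116. *Tgfbi* encodes the closest relative of periostin, a fasciclin-domain protein of the matrix that TGF-β induces, and *Actg2* encodes the gamma actin of smooth muscle. *Tgfbi* had 225, 255, 238, and 268 counts in the WT samples and 118, 111, 116, and 111 in the *Hint1-/-* samples. Its groups did not overlap, and its log2 fold change was −1.10 (SE 0.081, edgeR's quasi-likelihood test, adjusted p = 1.14e-08). At a similar fold change, this SE was larger than that of *Postn* (0.034). Genes that differ mainly by genotype resemble each other on this measure, and likeness over 2 groups of samples says nothing of shared control.

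Osteopontin, a phosphorylated glycoprotein that binds αv integrins and CD44, curbs mineral growth, and is a standard marker of the synthetic state, took more counts than any other gene of the data set. *Spp1*, on chromosome 5 of mm10 from 104435118 to 104441050 on the plus strand, had 178588, 190959, 186678, and 207599 counts in the WT samples and 149525, 157603, 163335, and 154487 in the *Hint1-/-* samples. The *Hint1-/-* samples were all lower than the lowest WT sample, and WT replicate 4 was the highest of the 8. Mean levels were 9130 ± 585 CPM for WT and 7530 ± 271 CPM for *Hint1-/-* MASMCs (SD, n = 4 each), or 82.4% of WT. This difference was past the adjusted p but short of the fold limit, with a log2 fold change of −0.28 (SE 0.042, 95% confidence interval −0.37 to −0.19, edgeR's quasi-likelihood test, adjusted p = 8.69e-05).

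Osteopontin is also a major product of macrophages, and macrophage markers were present in these cultures and moved with *Spp1*. Of the 6 markers on the list, 5 (*Cd68*, *Adgre1*, *Csf1r*, *Lyz2*, and *Ptprc*) were lower in *Hint1-/-* MASMCs at the adjusted p alone, where 10.2% of all genes tested were lower. None of these 5 passed the fold limit, and no marker was at 0. *Mrc1* went the other way, with 1.00 CPM in WT and 1.51 CPM in *Hint1-/-* MASMCs. It did not pass the adjusted p (0.074 in edgeR's quasi-likelihood test). Their summed level was 1887, 2001, 1953, and 2186 CPM in the WT samples and 1529, 1625, 1606, and 1548 CPM in the *Hint1-/-* samples. WT replicate 4 was again the highest, and the groups did not overlap. The mean of this sum was 2010 ± 128 CPM for WT and 1580 ± 45.8 CPM for *Hint1-/-* MASMCs (SD, n = 4 each), 78.6% of WT, with *Lyz2*, a lysozyme gene of myeloid cells, the most abundant of the list at 1200 and 966 CPM. Within WT, the 4 samples stood in the same order for *Spp1* as for the summed markers. In *Hint1-/-* MASMCs the order differed at the top, where replicate 3 had the most *Spp1* and replicate 2 the highest sum.

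The ratio of *Spp1* counts to the summed macrophage counts, a scale chosen after seeing the data, was 4.54, 4.55, 4.57, and 4.55 in the WT samples and 4.72, 4.69, 4.89, and 4.81 in the *Hint1-/-* samples. The WT samples were nearly equal, and on this scale the *Hint1-/-* samples were the higher group (two-sided exact permutation test, n = 4 each, p = 0.0286). Divided by *Lyz2* alone, *Spp1* gave 7.5 to 7.7 in WT and 7.6 to 8.04 in *Hint1-/-* MASMCs, ranges that overlapped (two-sided exact permutation test, n = 4 each, p = 0.171). Divided by *Csf1r*, the receptor that macrophages need for survival, it gave 22.5 to 23.6 in WT and 24.5 to 25.2 in *Hint1-/-* MASMCs. The direction of the *Spp1* difference thus depended on whether library size or these markers set the scale. Fewer cells of a type and less RNA per cell cannot be told apart in bulk samples, and the part of macrophage RNA in the *Spp1* level was not tested.

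**Figure D3:**
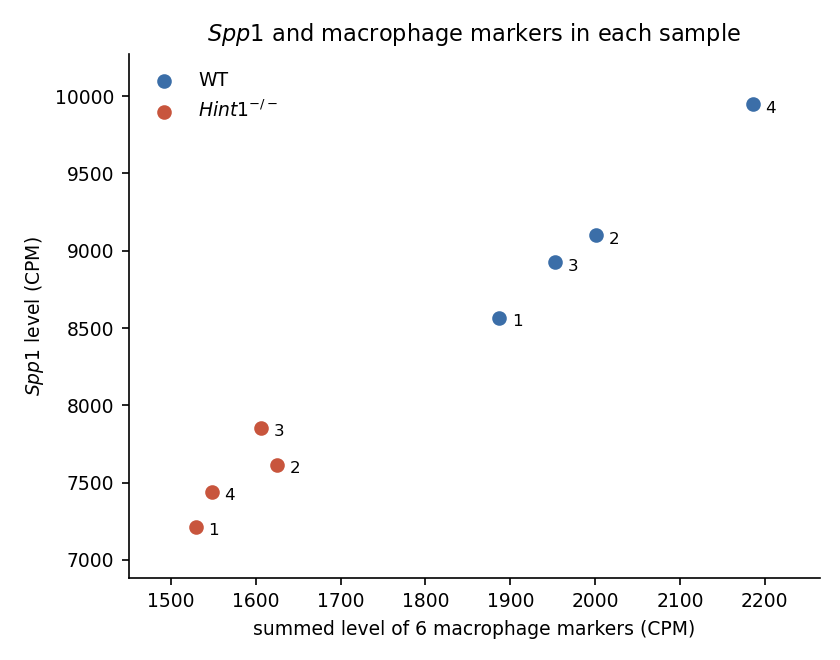
Level of *Spp1* (vertical axis, CPM) against the summed level of 6 macrophage markers (horizontal axis, CPM) in each of the 8 samples, with replicate numbers beside the points. Both axes start above 0. The WT samples run from 1887 to 2186 CPM of the markers and the *Hint1-/-* samples from 1529 to 1625 CPM, with no overlap on either axis.

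Tenascin C, a large hexameric glycoprotein that loosens cell attachment and appears in the artery wall after injury, was lower in *Hint1-/-* MASMCs at the adjusted p alone. *Tnc*, on chromosome 4 from 63959785 to 64047015 on the minus strand, had 25066, 23632, 23525, and 21547 counts in the WT samples and 21297, 19213, 20083, and 19557 in the *Hint1-/-* samples. The groups did not overlap, but WT replicate 4 at 21547 and *Hint1-/-* replicate 1 at 21297 counts nearly met. Mean levels were 1120 ± 69.5 CPM for WT and 966 ± 43.7 CPM for *Hint1-/-* MASMCs (SD, n = 4 each), with a log2 fold change of −0.22 (SE 0.043, 95% confidence interval −0.31 to −0.13, edgeR's quasi-likelihood test, adjusted p = 0.00117). A further tenascin, *Tnn* (tenascin N or W, found mainly in bone and at sites of cell activation), fell from a low level. Its counts were 80, 89, 91, and 70 in the WT samples and 15, 8, 9, and 14 in the *Hint1-/-* samples, 2 groups that lay well apart. Its log2 fold change was −2.82 (SE 0.20, edgeR's quasi-likelihood test, adjusted p = 6.49e-09).

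The thrombospondins differed among themselves in level more than between genotypes. *Thbs1* and *Thbs2* encode the trimeric thrombospondins, which bind CD36 and CD47 and restrain angiogenesis, and thrombospondin 1 also activates latent TGF-β. *Thbs1*, on chromosome 2, had 61929, 60590, 59111, and 55039 counts in the WT samples and 63477, 59189, 58983, and 63199 in the *Hint1-/-* samples. The groups overlapped, WT replicate 4 was the lowest sample, and the log2 fold change was 0.06 (95% confidence interval −0.02 to 0.14, edgeR's quasi-likelihood test, adjusted p = 0.313). *Thbs2* had 21785, 20835, 21028, and 21423 counts in the WT samples and 20050, 19091, 19860, and 20199 in the *Hint1-/-* samples. The *Hint1-/-* samples were all lower, but by little, at 93.8% of the WT level. Its log2 fold change was −0.09 (SE 0.032, 95% confidence interval −0.16 to −0.03, edgeR's quasi-likelihood test, adjusted p = 0.045). This call was lost with no filter on low counts (edgeR, adjusted p = 0.0558) and in 6 of the 8 fits that left out a sample, where edgeR gave values as high as adjusted p = 0.154.

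*Thbs3* and *Thbs4* encode pentameric thrombospondins, relatives of the cartilage protein COMP. *Thbs3* was counted at 458 to 549 in WT and 434 to 542 in *Hint1-/-* samples, almost the same range, with a log2 fold change of 0.00 (95% confidence interval −0.14 to 0.15, edgeR's quasi-likelihood test, adjusted p = 0.98). On the linear scale this interval runs from 0.906 to 1.11 times the WT level, and no difference was detectable within it. Of its 4823 exon bases, 318 are shared with *Mtx1* on the opposite strand, and the use of strand in counting is not given in the sources used here. *Thbs4*, the thrombospondin of tendon and muscle, had 0, 0, 1, and 3 counts in the WT samples and 0, 0, 2, and 0 in the *Hint1-/-* samples, too few for a comparison. *Comp* itself was scarce, at 26, 26, 15, and 24 counts in the WT samples and 42, 35, 41, and 39 in the *Hint1-/-* samples. All *Hint1-/-* samples were the higher ones, and *Comp* was called changed with a log2 fold change of 0.79 (SE 0.20, edgeR's quasi-likelihood test, adjusted p = 0.00639), a call that was lost when a fold change of 1.5 was itself tested with glmTreat.

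In the SPARC family, *Sparc* was slightly lower and *Smoc2* higher in *Hint1-/-* MASMCs at the adjusted p alone, and *Smoc1* did not pass. *Sparc* encodes osteonectin, a calcium- and collagen-binding protein that guides collagen assembly, and lies 0.524 Mb from *Hint1* on chromosome 11. It had 69475, 66903, 66056, and 62042 counts in the WT samples and 62116, 60024, 58288, and 59754 in the *Hint1-/-* samples. WT replicate 4 was lower than *Hint1-/-* replicate 1, so the groups overlapped (two-sided exact permutation test, n = 4 each, p = 0.0571). The log2 fold change was −0.13 (SE 0.037, 95% confidence interval −0.21 to −0.05, edgeR's quasi-likelihood test, adjusted p = 0.0178), and the call was lost without WT replicate 1 (adjusted p = 0.0713) or *Hint1-/-* replicate 3 (adjusted p = 0.0541) in the same edgeR test. *Smoc1*, a basement membrane protein that antagonizes BMP signalling, had 3358 to 3844 counts in WT and 3554 to 3684 in *Hint1-/-* samples. Its *Hint1-/-* range lay inside its WT range, with a log2 fold change of 0.00 (95% confidence interval −0.08 to 0.08, edgeR's quasi-likelihood test, adjusted p = 0.993).

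*Smoc2*, the other modular calcium-binding member and a partner of growth factor signalling in the matrix, was the member that was higher in *Hint1-/-* MASMCs. It had 310, 269, 294, and 253 counts in the WT samples and 391, 337, 377, and 351 in the *Hint1-/-* samples. All 4 *Hint1-/-* samples exceeded all 4 WT samples, although this was the least abundant of the tested members. Mean levels were 13.5 ± 1.23 CPM for WT and 17.5 ± 1.16 CPM for *Hint1-/-* MASMCs (SD, n = 4 each). The fold change of 1.3 was under the limit of 1.5, with a log2 value of 0.38 (SE 0.072, 95% confidence interval 0.23 to 0.53, edgeR's quasi-likelihood test, adjusted p = 0.000704). On chromosome 17, *Smoc2* (14279506 to 14404790) and *Thbs2* (14665500 to 14694235) lie close together, and their differences had opposite signs. The genes most like *Smoc2* by the same root mean square measure were *Ccn1* at 0.0449, *Ccn2* at 0.05, and *Slc9a7* at 0.0539.

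*Ccn1* and *Ccn2* encode matricellular proteins too, the CCN proteins CYR61 and CTGF, which bind integrins and are targets of serum and YAP signalling. *Ccn2* had 17268, 16639, 16942, and 15231 counts in the WT samples and 22331, 19631, 20980, and 19749 in the *Hint1-/-* samples. The *Hint1-/-* samples were all higher, and its log2 fold change was 0.33 (SE 0.044, edgeR's quasi-likelihood test, adjusted p = 1.87e-05), with *Ccn1* at 0.35 (SE 0.041, adjusted p = 3.64e-06 in the same test). *Ccn3*, *Ccn4*, and *Ccn5*, of the same family, were lower at the adjusted p alone, with log2 fold changes of −0.19, −0.41, and −0.37, and were named after their values were seen. *Ccn6* was too low to test. All 6 belong to a list of 26 related matricellular and matrix-binding genes, of which 25 were found and 18 tested. *Spock3* was not analysed here. On that list 1 gene rose (*Comp*) and 2 fell (*Tnn* and *Tgfbi*) past both limits, where 2.83% of all genes tested passed them. At the adjusted p alone, 4 were higher and 9 lower, beside 11.2% higher and 10.2% lower over all genes tested, and the median log2 fold change of the list was −0.17. Of its most abundant other genes, *Fn1* (fibronectin) had a log2 fold change of −0.04, *Fbln2* (fibulin 2) of −0.22, and *Lgals1* (galectin 1) of −0.07, and of these only *Fbln2* passed the adjusted p (0.000147 in edgeR's quasi-likelihood test).

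The receptors that bind these proteins were mixed in direction. Of 22 integrins, scavenger receptors, and other binding partners on the list, 21 were tested, 1 fell past both limits, 5 were higher and 6 lower at the adjusted p alone, and the median log2 fold change was 0.00. Over all genes tested, 2.83% passed both limits and 21.5% the adjusted p alone, so 1 of 21 is near the share of all genes. The gene that fell was *Itga8*, the integrin α8 subunit, which binds osteopontin, tenascin C, and fibronectin, with 90, 85, 89, and 101 counts in the WT samples and 37, 47, 29, and 47 in the *Hint1-/-* samples. The groups were well separated, and its log2 fold change was −1.18 (SE 0.15, edgeR's quasi-likelihood test, adjusted p = 1.24e-05). The study also picked this integrin from these samples, so its direction is not independent evidence. The most abundant receptors on the list were *Calr*, *Lrp1*, and *Itgb1*. Calreticulin and LRP1 together form the receptor for the amino-terminal end of thrombospondin, and their genes had log2 fold changes of 0.10 and 0.16, both past the adjusted p alone (0.0294 and 0.02 in edgeR's quasi-likelihood test). *Itgb1*, the β1 integrin chain, had −0.07 (edgeR's quasi-likelihood test, adjusted p = 0.105).

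Among 22 genes whose products phosphorylate, crosslink, or cleave the members or act with them on latent TGF-β, all 22 were tested, 1 rose and 1 fell past both limits, and 6 were higher and 5 lower at the adjusted p alone, with a median log2 fold change of 0.02. The shares over all genes tested were again 2.83% past both limits and, at the adjusted p alone, 11.2% higher and 10.2% lower. *Mmp3*, stromelysin 1, a protease that cleaves osteopontin, tenascin C, and SPARC, rose from 37713, 33510, 37406, and 37329 counts in the WT samples to 68958, 75047, 67502, and 66465 in the *Hint1-/-* samples. The gap was wide, and the log2 fold change was 0.94 (SE 0.045, edgeR's quasi-likelihood test, adjusted p = 2.16e-11). *Mmp9*, gelatinase B, fell from a low level, with 143, 126, 133, and 124 counts in the WT samples and 67, 93, 69, and 80 in the *Hint1-/-* samples. Its groups did not overlap, with a log2 fold change of −0.76 (SE 0.12, edgeR's quasi-likelihood test, adjusted p = 9.2e-05), and this call too was lost with glmTreat. *Lox* (lysyl oxidase) and *Ltbp2* (a latent TGF-β-binding protein) were among the most abundant others, with log2 fold changes of 0.29 and 0.33, both past the adjusted p alone.

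Markers of several cell types differed between the genotypes beside these genes. For the counts that follow, 2.83% of all genes tested passed both limits, and 11.2% were higher and 10.2% lower at the adjusted p alone. The 6 smooth muscle markers summed to 1440 ± 58.1 CPM in WT and 1170 ± 38.9 CPM in *Hint1-/-* MASMCs (SD, n = 4 each), with *Acta2* the most abundant at 826 and 578 CPM, and *Myh11*, the contractile myosin that defines mature smooth muscle, at 20.4 ± 1.03 and 6.98 ± 0.348 CPM. Markers of the labelled cell type were thus detected in every sample, although the share of such cells was not measured. At the adjusted p alone, 4 of the 6 markers were lower and 1 higher. Of these, *Myh11* and *Cnn1* fell past both limits, with log2 fold changes of −1.54 and −1.12. The 6 fibroblast markers summed to 5190 ± 217 and 5740 ± 169 CPM, with 3 higher and 2 lower at the adjusted p alone. The most abundant, *Col1a1*, was lower (3690 and 3290 CPM) and *Dcn* higher (1110 and 1970 CPM), and *Dcn* and *Lum* rose and *Dpt* fell past both limits. Fibroblasts are known to make periostin, tenascin C, and SPARC as well. Of the Schwann cell markers, *Ngfr* fell from 21.9 ± 1.39 to 3.30 ± 0.572 CPM and *Sox10* from 12.2 ± 0.509 to 2.11 ± 0.161 CPM, while *S100b* had 1.54 ± 0.313 and 1.58 ± 0.137 CPM (SD, n = 4 each). *Sox10* encodes a transcription factor and *Ngfr* a neurotrophin receptor of neural crest-derived glia. Endothelial markers summed to 5.00 ± 1.00 and 4.60 ± 1.01 CPM, with *Kdr* too low to test and none of the other 4 past the adjusted p. Chondrocyte markers (without *Col9a1*, not analysed here) summed to 21.1 ± 1.07 and 49.6 ± 0.855 CPM, with *Col2a1* higher (2.28 and 24.4 CPM) and *Acan* lower (0.837 and 0.229 CPM) past both limits. Osteoblast markers summed to 15.1 ± 0.841 and 16.7 ± 0.584 CPM, and of the 2 tested *Alpl* rose past both limits. Cardiac muscle markers summed to 1.76 ± 0.457 and 6.76 ± 1.53 CPM (SD, n = 4 each), and all 3 that were tested rose past both limits, *Myh6*, *Tnnt2*, and *Myl7*, with log2 fold changes of 5.50, 0.76, and 7.52 and 0 counts of *Myl7* in every WT sample. The 4 cell cycle markers summed to 512 ± 22.6 and 580 ± 16.0 CPM, all higher at the adjusted p alone. No list had a gene at 0 in all 8 samples. The part of any of these cells in the level of a matricellular gene was not tested.

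Promoter windows, from 250 bases before to 50 after a gene's start, were found in the RefSeq table for 7 of the 10 members, as 10 windows, and not for *Thbs1*, *Smoc1*, or *Smoc2*. The windows of *Postn* and of the related genes *Tgfbi* and *Tnn* are shown because these transcripts fell together. They are from GRCm38.p6, at chr3:54360857-54361156 and chr3:54359017-54359316 on the plus strand for the 2 starts of *Postn*, chr13:56609336-56609635 on the plus strand for *Tgfbi*, and chr1:160153526-160153825 on the minus strand for *Tnn*, and are written 5′ to 3′ along the gene's strand. Capitals mark GCCNNNGGC, a TFAP2A motif, and TATAAA.
Postn, downstream start: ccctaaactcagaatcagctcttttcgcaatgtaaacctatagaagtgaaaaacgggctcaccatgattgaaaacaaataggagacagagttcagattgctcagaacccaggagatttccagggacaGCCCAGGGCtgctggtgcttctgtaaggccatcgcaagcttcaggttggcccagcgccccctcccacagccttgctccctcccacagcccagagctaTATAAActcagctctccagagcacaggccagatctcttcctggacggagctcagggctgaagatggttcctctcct
Postn, upstream start: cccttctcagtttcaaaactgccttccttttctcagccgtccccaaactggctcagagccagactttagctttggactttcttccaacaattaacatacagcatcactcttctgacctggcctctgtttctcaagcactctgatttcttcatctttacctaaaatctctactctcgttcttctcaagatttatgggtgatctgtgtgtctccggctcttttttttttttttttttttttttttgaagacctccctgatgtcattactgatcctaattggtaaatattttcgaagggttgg
Tgfbi: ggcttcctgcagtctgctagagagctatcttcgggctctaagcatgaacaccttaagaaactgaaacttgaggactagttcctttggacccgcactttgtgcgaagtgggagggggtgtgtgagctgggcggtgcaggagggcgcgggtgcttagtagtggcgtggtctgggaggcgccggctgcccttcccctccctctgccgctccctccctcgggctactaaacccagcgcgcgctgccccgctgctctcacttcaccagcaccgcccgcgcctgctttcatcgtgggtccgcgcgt
Tnn: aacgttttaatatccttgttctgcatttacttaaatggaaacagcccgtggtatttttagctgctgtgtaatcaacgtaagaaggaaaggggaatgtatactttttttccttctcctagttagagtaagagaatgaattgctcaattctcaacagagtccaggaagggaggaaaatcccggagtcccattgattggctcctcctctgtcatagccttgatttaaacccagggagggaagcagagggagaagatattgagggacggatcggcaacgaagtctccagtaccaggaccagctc

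Motifs searched on both strands were TGANTCA (AP-1), GCCNNNGGC (TFAP2A), CACGTG (E-box), and the CArG box, and they were found in 7.81%, 16.6%, 7.15%, and 1.63% of all 32817 windows of this length in the table. In the 10 windows of the members there was a single match, the TFAP2A motif at position −123 of the downstream *Postn* start, and the windows of *Tgfbi* and *Tnn* held none. TATAAA was searched on the given strand after the sequences had been seen, and 8.32% of all windows held it. It was found at −26 of the downstream *Postn* start, at −211 in a window of *Spp1*, and in both overlapping windows of *Tnc*. A match says only that these letters are there.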

How the data were processed

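Expected counts per gene, estimated so that a read may be divided between genes, were deposited by the authors without normalization, 1 table for each of the 8 samples. The study's methods give 50 bp reads on a BGISEQ-500 and mapping to mm10 with HISAT2, and the submitters' processing notes name Bowtie2, RSEM 1.3.1, and DESeq2 1.4.5. The 2 accounts were not reconciled, and reads of close paralogs may have been divided. Depth was 20778077 to 20888041 counts per sample, and among the members the standard error of the log2 fold change ran from 0.032 (*Thbs2*) to 0.072 (*Smoc2*, the tested member with fewest counts).

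Expected counts were rounded to whole numbers, filtered with filterByExpr, scaled by TMM, and compared by genotype with edgeR 4.0.16 (glmQLFit and glmQLFTest) in R 4.3.3, with Benjamini-Hochberg adjustment over all 13535 genes tested. SE is the size of the log2 fold change divided by the square root of F, and intervals are 95%. Log2 CPM used a prior count of 2. Exact permutation tests were two-sided, run in Python 3.11.15 with scipy 1.17.1. Exon lengths and positions came from GENCODE M21. The pipeline was tested on simulated data for this comparison, where edgeR recovered 94.5% of 200 genes given a 2-fold change among 13445 tested, with 4 false calls. A chi-square per gene between pairs of samples was 2.07 to 5.25 within a genotype and 11.3 to 16.4 between genotypes, above the value near 1 that counting noise gives, so no pair was taken as 1 library.

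The members, the related lists, and the marker lists were chosen with earlier results of these data known. Named genes were the 10 members, the list genes past both limits, up to 3 of the most abundant others per list, the summed markers, and the 3 genes most like each of *Postn* and *Smoc2* among genes averaging 50 counts or more. Single markers other than the most abundant were named after their values were seen. Alternatives were DESeq2 size factors, upper-quartile factors, no filter, a minimum of 10 counts in each of the samples, a block by replicate number, DESeq2 1.42.0, limma-voom (limma 3.58.1), glmTreat, no fold limit, and each sample left out. Protein sequences were not used, and the results of a few listed genes are not reported here.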

Additional observations from a re-analysis of the deposited data

Results flagged for a closer look

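In each genotype, the highest or lowest of the 4 samples was set against the others by its gap to the nearest sample as a share of the whole range (Dixon's ratio). Of 52 groups of values examined, 3 were marked, where chance marks about 1 in 20, or 2.6 of 52. The first was *Comp* in WT MASMCs, with 15 counts in replicate 3, compared with 24 to 26 elsewhere, and a ratio of 0.85 on log2 CPM. *Mmp3* in WT MASMCs was marked for replicate 2, at 33510 counts against 37329 to 37713, with a ratio of 0.909. The summed smooth muscle markers in WT MASMCs were marked for replicate 2 as well, at 1350 CPM against 1465 to 1467 CPM in the other samples, with a ratio of 0.983. All values of *Spp1*, *Postn*, and the other members lay below the limit of this ratio.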

How the results depend on the processing

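*Postn* stayed the only called member in all 15 refits that kept both limits, with log2 fold changes between −1.10 and −1.07, and *Spp1*, *Tnc*, and *Smoc2* kept their direction and their side of the adjusted p in the same refits. Without the fold limit, 2907 genes passed instead of 383, with 6 members instead of 1, 13 related genes instead of 3, 11 receptors instead of 1, and 11 processing genes instead of 2. With glmTreat against a fold change of 1.5, 108 genes passed, all among the 383, with 1 processing gene (*Mmp3*) instead of 2, as *Mmp9* was lost, and 2 related genes instead of 3, as *Comp* was lost. Stricter or absent limits on the fold change set these counts by construction. *Thbs3* changed sign with upper-quartile factors (−0.007) and ranged from −0.0455 to 0.0704 over the fits that left out a sample. *Smoc1* changed sign with the replicate block (0.0006) and limma-voom (0.001) and ranged from −0.0367 to 0.0279 over the left-out samples, and the cause was not tested. Deviations of samples with the same replicate number had correlations of 0.183, 0.136, −0.0492, and 0.063 across genes. Between samples with different numbers the correlations ran from −0.218 to 0.198. The main fit used the numbers as names only, and whether samples with the same number shared a batch was not tested. The block gave 382 called genes with *Postn* again the only member. With it, 22.8% of all genes tested passed the adjusted p alone, beside 21.5% in the main fit. The counts of called genes over the fits without a sample ran from 350 to 390. Depth gave *Comp* and *Tnn* the widest standard errors of the genes called in the related lists (0.20 each), and *Thbs4* could not be compared. *Tnn* was not tested where every sample needed at least 10 counts.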

Other observations

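Within each genotype, the sample with most *Spp1* often had the least of the other members. WT replicate 4 had the most *Spp1* of its group and the least *Postn*, *Tnc*, *Thbs1*, *Sparc*, *Smoc1*, and *Smoc2*, 6 of the other 8 tested members. WT replicate 1 had the least *Spp1* and the most *Tnc*, *Thbs1*, *Thbs2*, *Sparc*, *Smoc1*, and *Smoc2*, again 6 of 8. Among *Hint1-/-* samples, replicate 1 had the least *Spp1* and the most *Postn*, *Tnc*, *Thbs1*, *Sparc*, *Smoc1*, and *Smoc2*, while replicate 3 had the most *Spp1* and the least of 4 of the 8. The summed macrophage markers were at the same end as *Spp1* in the first 3 of these samples and not in *Hint1-/-* replicate 3. With 4 samples in a genotype no correlation was computed, and this order was seen after the values were known. How many of all genes tested had their highest or lowest value in these samples was not counted. The summed fibroblast markers were also lowest in WT replicate 4 (4978 CPM) and highest in WT replicate 1 (5466 CPM). Among *Hint1-/-* samples they were lowest in replicate 3 (5514 CPM) but highest in replicate 4 (5906 CPM).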
